A study of Arabidopsis thaliana with 71 samples.

Results

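The 3 libraries of Arabidopsis seedlings of the line GR-AS2 taken 30 min after dexamethasone were compared with the 6 wild-type (WT) libraries of the same time, 9 of the 71 libraries of the series. The libraries were chosen by their labels alone, and no measured value entered the choice. Genes entered the test when the mean of at least 1 of these 2 groups reached 1 FPKM (fragment counts adjusted for transcript length and for sequencing depth), which left 18162 of the 22132 nuclear genes in the table. GR-AS2 carries Asymmetric Leaves 2 (AS2) fused with the steroid-binding domain of the glucocorticoid receptor (GR), and the WT plants were Columbia without a fusion. Both groups were whole seedlings grown for 7 days in liquid medium in flasks under light, and both received 50 µM dexamethasone. The series also followed lines with fusions of SHOOT MERISTEMLESS (GR-STM), REVOLUTA (GR-REV) and KANADI1 (GR-KAN1), and every line was sampled at 0, 30, 60 and 120 min, the 0 min samples without hormone. The promoter that drives the fusion and the number of independent lines behind GR-AS2 were not stated in the labels. No GR-AS2 group kept without dexamethasone for 30 min was used, so effects of the line and of the hormone cannot be told apart within the 30 min samples.

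AS2 is a LOB-domain DNA-binding protein of the upper side of the leaf. It works with the MYB protein AS1 to keep KNOX homeobox genes and genes of the lower leaf side silent in leaves. A protein fused to the GR domain is held outside the nucleus until a steroid such as dexamethasone binds it, so that hormone addition sets when the factor reaches its genes. The comparison at 30 min asks how the transcriptome of the line stood, relative to WT, shortly after that addition.

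AS2 itself marked the line. AS2 (AT1G65620, chromosome 1, 24398143 to 24400989, TAIR10.1) stood at 146.8, 223.9 and 127.6 FPKM in the GR-AS2 libraries and at 2.59 to 5.85 FPKM (median 3.48) in the WT libraries. The groups were far apart, with means of 166 ± 50.9 (SD, n = 3) and 3.80 ± 1.34 FPKM (n = 6). The log2 difference, on the log2(FPKM + 0.5) scale used for all differences, was 5.65 with a standard error (SE) of 0.18 and an adjusted p of 8.57e-32 in limma. It was 6.51 at 0 min, before the hormone, 5.63 at 60 min and 5.41 at 120 min. In the other 3 lines at 30 min AS2 averaged 1.67 to 2.52 FPKM. Reads of the fusion transcript and of the gene's own transcript were not separated in these values.

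Of the 18162 genes, 846 passed an adjusted p (Benjamini-Hochberg) of 0.05 in limma and are referred to as called, 4.66% of those tested. They were 450 higher (2.48%) and 396 lower (2.18%) in GR-AS2, with log2 differences from −3.18 to 5.65 and medians of 1.02 and −0.78. A difference of at least 2-fold was found for 236 of the higher and 98 of the lower genes. The groups did not overlap in 371 of the 846, which were 127 of the higher and 244 of the lower genes, while 6.23% of all tested genes had groups apart. At an unadjusted p under 0.05 the comparison held 3552 genes. SE and p here rest on a spread shared over all 71 libraries, not on that within the 9 compared. A fit of those 9 alone called 4 genes.

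**Figure D1:**
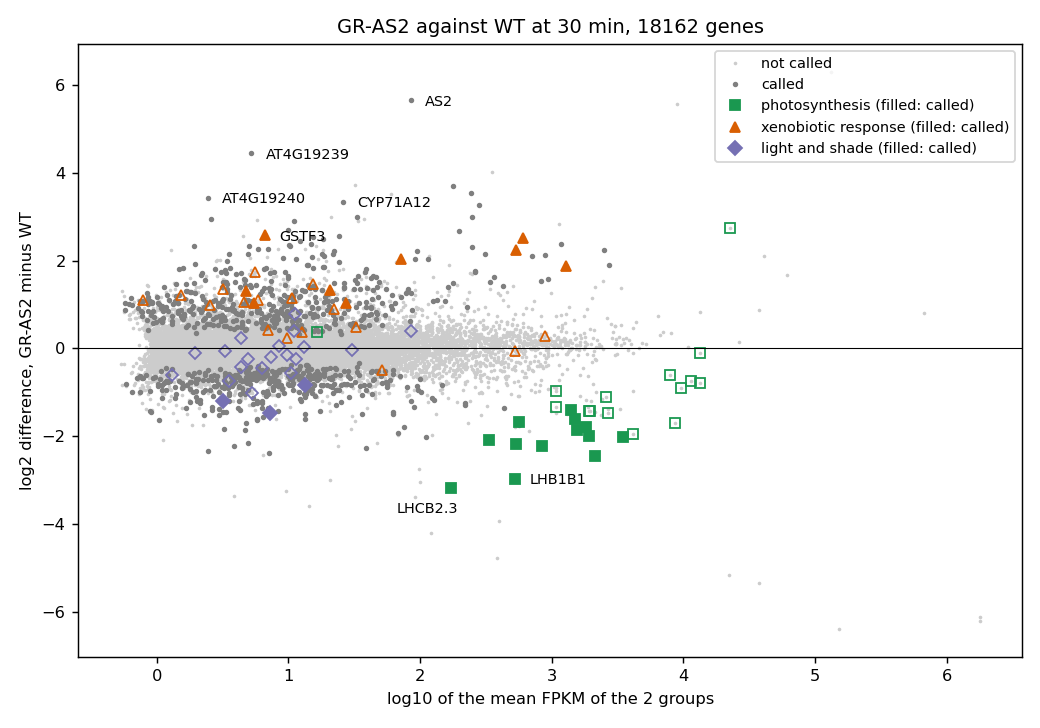
Each point is 1 of the 18162 tested genes, by the mean of its GR-AS2 and WT group means and its log2 difference of GR-AS2 minus WT at 30 min. Dark grey points are the 846 called genes, coloured symbols are members of 3 gene lists (filled where called), and the filled photosynthesis squares lie between −1.40 and −3.18. Some genes with wider differences than AS2 (5.65) were not called.

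Single libraries carried much of that count, and the summed organelle values differed between libraries. GR-AS2 replicate 3 and WT replicate 3 stood apart from their groups: their mean correlations with the other libraries of their group were 0.898 and 0.922, against 0.933 to 0.956 for the other 7 libraries. GR-AS2 replicate 3 was the library furthest from the WT mean in 633 of the 846 called genes, or 74.8%. The median difference of the genes called higher was 0.40 in replicate 1, 0.63 in replicate 2 and 1.93 in replicate 3. For the genes called lower it was −0.77, −0.78 and −1.01. Without GR-AS2 replicate 3, 87 genes were called, 68 of them among the 846. Without GR-AS2 replicate 1 the count was 1552, without WT replicates 1, 2 or 6 it was 520, 453 and 544, and without both libraries that stood apart it was 292 (91 higher, 201 lower). WT libraries 4 and 5 carry library codes of series OtA0 and WT 6 one of series Ot86, while the GR-AS2 libraries and WT 1 to 3 carry codes of series Ot79. The fit held the code series as a covariate, and within series Ot79 alone, 3 against 3 libraries, 32 genes were called, all of them among the 846. Each of the 846 genes had the same sign of its difference there, but these libraries also gave the 846 calls, so the shared sign is no separate support. Organelle genes, which were not tested, summed to 40228500 FPKM in GR-AS2 replicate 3 and to 453949 and 654586 FPKM in replicates 1 and 2. In WT they summed to 27571500 FPKM in replicate 1, 28327800 in replicate 3 and 168760 to 723525 in the other 4. The locus ATCG00090 made up 90.5%, 91.7% and 76.8% of the 3 high sums and was listed at 0 in the other 6 libraries. Without it the sums were 3809040, 2285220 and 6574620 FPKM, still above the others, and their part in the results was not tested.

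**Figure D2:**
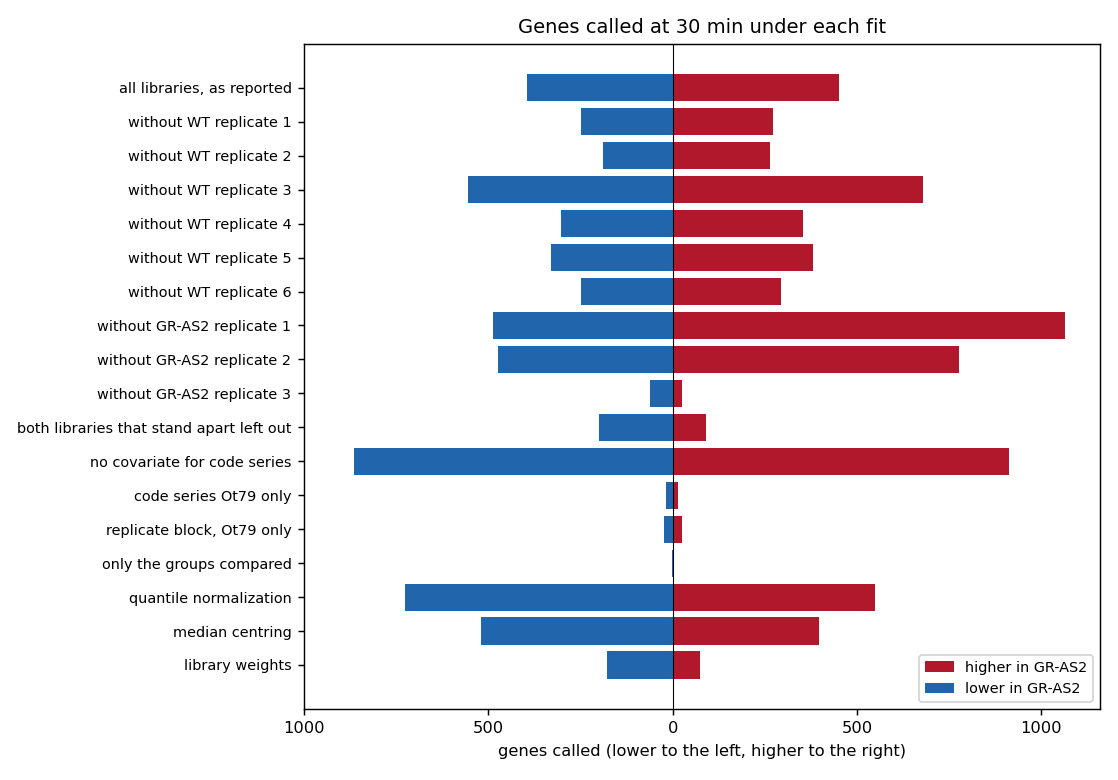
Bars give the number of genes called higher and lower in GR-AS2 at 30 min in the main fit and when a library or a setting was changed. The main count of 846 falls to 87 without GR-AS2 replicate 3.

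A set of 44 genes was called in every one of the 9 fits that left out 1 library, 13 higher and 31 lower. In 37 of the 44 the groups did not overlap, as in 371 of the 846 called genes and 6.23% of all tested genes. The 44 were selected on these same libraries, so their separation is no separate support. Of these 44, 22 were also called the same way at 0 min, where 11% of all tested genes were called. At 0, 60 and 120 min 43, 40 and 44 of them had the same sign as at 30 min. Over all tested genes 66.3%, 59.6% and 65.5% did. Without GR-AS2 0 min replicate 3 the 22 were 5. Of the 0 min calls of named genes given below, those of AS2, AT4G19239, AT4G19240, YAB3, FER1 and CAT1 remained without that library, and the others were lost. The results on single genes below begin with those among the 44. Of the 102 genes named by the rule given with the processing, 71 were called, and 56 of the 71 lost the call without GR-AS2 replicate 3. They lost it there unless the text says that the call held, and calls that also fell without another library are marked.

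Photosynthesis genes, most of them coding for the antenna of the photosystems, had the widest median shift of the 32 gene lists. Light-harvesting chlorophyll a/b-binding proteins (LHCA around photosystem I, LHCB around photosystem II) hold most of a leaf's chlorophyll and pass light energy to the reaction centres. Of 28 tested genes of the photosynthesis list, 13 were lower and none higher, against 2.18% of all genes called lower. The list's median difference was −1.54, beside 0.03 over all tested genes, and it was −1.91 over the 18 antenna genes and −0.93 over the other 10, a split made after the values were seen. The 13 were LHCB2.3, LHCB4.2, LHB1B1, LHCB3, LHCA1, LHCB2.2, LHCA4, LHCB2.1, LHCA3, PSBP-1, LHCB6, LHCB5 and CAB2, of which PSBP-1 belongs to the water-splitting complex and the rest to the antenna. In 19 of the 28 all GR-AS2 libraries lay below all WT libraries, as in 3.82% of all tested genes. Without GR-AS2 replicate 3, 1 of the 13 was called, and without WT replicate 2, 4.

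The promoters of 2 of these genes are shown because they belong to the strongest called differences, beside 2 of the detoxification genes described further on. Each run is the 250 bases before the annotated start, 5′ to 3′ on the gene's strand, from RefSeq's TAIR10.1 genome, in lower case with motif matches in capitals. The motifs searched on both strands were CACGTG (the G-box), GATAAG (the I-box), TGACG (the core bound by TGA factors, CGTCA on the other strand) and GCGGCG (described for LOB-domain proteins). Capitals mark CACGTG, and TGACG or CGTCA.
LHCB2.3, chr3:10255656-10255905, plus strand: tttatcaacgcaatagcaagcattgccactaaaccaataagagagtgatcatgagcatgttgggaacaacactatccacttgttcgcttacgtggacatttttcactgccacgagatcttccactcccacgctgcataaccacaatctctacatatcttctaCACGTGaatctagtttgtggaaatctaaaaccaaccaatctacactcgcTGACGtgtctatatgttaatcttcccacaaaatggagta
LHB1B1, chr2:14524357-14524606, plus strand: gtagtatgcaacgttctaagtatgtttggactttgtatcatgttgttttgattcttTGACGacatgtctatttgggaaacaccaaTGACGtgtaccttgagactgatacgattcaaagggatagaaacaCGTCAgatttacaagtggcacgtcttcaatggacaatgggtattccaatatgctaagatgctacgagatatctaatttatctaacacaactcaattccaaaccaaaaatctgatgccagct
GSTF3, chr2:852322-852571, minus strand: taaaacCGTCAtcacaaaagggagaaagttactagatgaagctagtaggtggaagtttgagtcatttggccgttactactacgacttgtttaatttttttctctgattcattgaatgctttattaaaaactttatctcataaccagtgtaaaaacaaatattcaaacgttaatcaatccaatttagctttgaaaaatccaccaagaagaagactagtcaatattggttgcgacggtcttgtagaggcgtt
UGT73B3, chr4:16344819-16345068, minus strand: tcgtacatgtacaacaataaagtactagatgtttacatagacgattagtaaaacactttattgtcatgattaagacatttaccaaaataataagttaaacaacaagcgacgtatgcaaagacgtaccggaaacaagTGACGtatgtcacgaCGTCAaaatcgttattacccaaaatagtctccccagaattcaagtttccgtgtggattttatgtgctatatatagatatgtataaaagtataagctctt
The windows of LHCB2.3 and LHB1B1 hold 1 and 3 matches to TGACG, and that of LHCB2.3 also holds CACGTG. The window of GSTF3 holds 1 match to TGACG and that of UGT73B3 holds 2. Over the windows of 17685 tested protein-coding genes, 7.19% held CACGTG, 12.5% GATAAG, 19.2% TGACG and 1.54% GCGGCG. Of the 13 photosynthesis genes called lower, 3 held CACGTG, 4 GATAAG, 5 TGACG and 0 GCGGCG, and of the 9 detoxification genes called higher the counts were 1, 1, 4 and 0. A match describes the letters in a window and was not tested as a site.

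LHCB2.3 (AT3G27690, chromosome 3, 10255906 to 10257489) encodes a protein of the mobile trimers of the antenna. Its levels were 51.5, 24.9 and 13.5 FPKM in GR-AS2 and 194, 590, 75.9, 420, 406 and 199 FPKM in WT. The groups did not overlap, although WT replicate 3 was the lowest of its group. The log2 difference was −3.18 (SE 0.57, adjusted p = 0.00156 in limma), and it was called in every fit that left out 1 library. It was −1.47 at 0 min, −0.56 at 60 min and −0.82 at 120 min, none of them called. GR-STM, GR-REV and GR-KAN1 averaged 137, 380 and 317 FPKM at 30 min. Strand use is not given in the sources used here, and the gene overlaps AT3G27700, so reads of both may be mixed. The same holds for LHCB3, LHCB4.2, EMB3003, PHT4;1, GSTF2, FER1, FER4, FRO3, NRT1.5, CKX6, GL2, REV, AT3G18250, AT1G02320, AT5G64170 and AT3G54500, which overlap other loci.

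LHB1B1 (AT2G34430, chromosome 2), another trimer protein, stood at 118.5, 145.6 and 80.3 FPKM in the GR-AS2 libraries and at 311 to 2324 FPKM (median 753) in WT. LHCB3 (AT5G54270, chromosome 5), which joins trimers to the core, stood at 732, 973 and 309 FPKM in the GR-AS2 libraries and at 2029 to 7230 FPKM in WT. LHCB4.2, a minor antenna protein, stood at 246, 246 and 131 FPKM against 441 to 2159 FPKM. In all of these genes the GR-AS2 libraries lay below WT, and WT replicate 2 was the highest library. The log2 differences were −2.97 (SE 0.68), −2.46 (SE 0.61) and −2.18 (SE 0.46), with adjusted p of 0.00924, 0.0138 and 0.00573. All 3 calls were lost without GR-AS2 replicate 3. None of the 3 was called at 0, 60 or 120 min. LHC genes have close copies, and counts between copies can be split by the quantification, so values of single members are uncertain. The small subunit gene RBCS1A was listed at 0 in all GR-AS2 libraries and in WT replicates 1 to 3, and CAB1 at 0 in WT replicate 3, although green seedlings use both. A listed 0 of such a gene can be a failed estimate, and neither gene was called.

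By library, the list's median difference from the WT mean was −1.27, −1.13 and −1.86 in GR-AS2 replicates 1 to 3. In WT it was 1.38 in replicate 2 and −0.48 to 0.02 in the other 5. At 0, 60 and 120 min the list's median difference between GR-AS2 and WT was −0.56, −0.50 and −0.19. Fewer chloroplast-rich cells and less of these transcripts per cell cannot be told apart in whole seedlings. Summed FPKM of the list ran from 60254 to 90528 in GR-AS2 and from 87620 to 328784 in WT, so the sums of the groups overlapped.

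**Figure D3:**
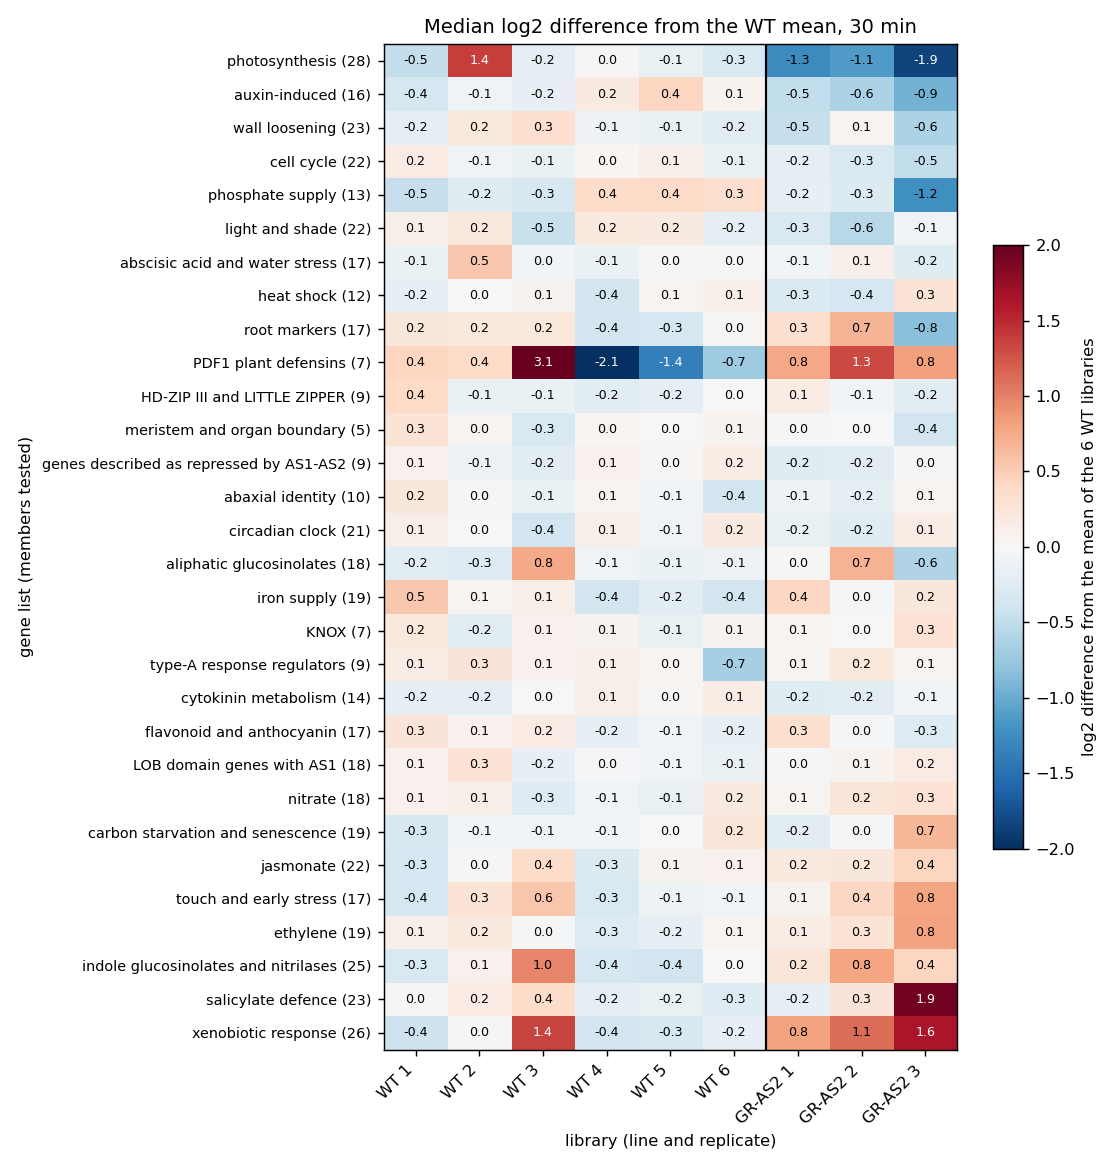
Each square is the median log2 difference of a gene list in 1 library from the WT mean at 30 min, with the colour scale ending at −2 and 2. Photosynthesis is below the WT mean in all 3 GR-AS2 libraries (−1.13 to −1.86), and salicylate defence is high in GR-AS2 replicate 3 (1.93).

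The naming rule also gave 3 lower genes of plastid proteins that are among the 44. TAPX (AT1G77490), the ascorbate peroxidase of the thylakoid membrane, stood at 13.3, 13.4 and 15.1 FPKM against 19.96 to 46.0 FPKM in WT. PHT4;1, a phosphate transporter of the thylakoid, stood at 9.10, 9.16 and 8.69 FPKM against 10.2 to 21.2 FPKM. EMB3003, an acyltransferase of the plastid pyruvate dehydrogenase, stood at 26.5, 32.9 and 25.7 FPKM against 35.1 to 44.998 FPKM. In all of them the groups were apart and the 3 GR-AS2 libraries lay close together. Their log2 differences were −0.95 (SE 0.20), −0.85 (SE 0.18) and −0.60 (SE 0.11), and TAPX and EMB3003 were also called lower at 0 min, with adjusted p of 0.0682 and 0.155 without GR-AS2 0 min replicate 3. CHLM, which methylates the chlorophyll precursor, and TL29, a thylakoid lumen protein, are among the 44 but outside the naming rule and were picked after their values were seen. Their differences were −1.23 and −1.34.

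A pair of growth factors of the shade and warmth pathway was lower. PHYTOCHROME-INTERACTING FACTORs are bHLH proteins that drive stem elongation and auxin synthesis, and phytochromes remove them in red light. PIL6 (AT3G59060, also called PIF5) stood at 9.05, 9.0002 and 8.48 FPKM in the GR-AS2 libraries and at 10.2 to 22.3 FPKM (median 19.2) in WT. Its groups were apart, its log2 difference was −0.82 (SE 0.17, adjusted p = 0.00406 in limma), and the call held in every fit that left out 1 library. PIF4 (AT2G43010) stood at 3.88, 5.83 and 1.42 FPKM against 4.95 to 15.8 FPKM, with a difference of −1.47 (SE 0.32, adjusted p = 0.00664). Its groups overlapped through WT replicate 3, and its call was lost without GR-AS2 replicate 3. PKS4, a phytochrome kinase substrate of phototropism, was lower by the same test at −1.196. PKS4 kept its call without GR-AS2 replicate 3 and lost it without GR-AS2 replicate 1 and without WT replicate 6. Of 22 tested genes of the light and shade list these 3 were lower, against 2.18% of all genes, none was higher and 19 were not called, with a list median of −0.22. Without both libraries that stood apart the list held 4 lower genes, in a fit that called 201 genes lower against 396 in the main fit.

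Auxin-induced genes gave a median of −0.61 over 16 tested members, 13 of them below 0, with 2 called lower and 1 higher, against 2.18% and 2.48% of all genes. IAA29, an Aux/IAA repressor, stood at 0.210, 0.238 and 0.146 FPKM against 0.626 to 2.42 FPKM in WT, apart, with a difference of −1.45 (SE 0.33, adjusted p = 0.00935 in limma). SAUR19, a small auxin-up RNA of cell elongation, was lower at −1.51, with WT replicate 3 at 0.949 FPKM below the highest GR-AS2 library at 1.43. SAUR9 was higher at 0.89 and lost its call without WT replicates 1, 2 or 3. The IAA29 and SAUR19 calls were lost without GR-AS2 replicate 3 only. The list's median was −0.12 at 0 min, and in the GR-AS2 libraries of 30 min it was −0.49, −0.63 and −0.94.

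Among the named genes of the expansin and XTH families, EXPA8 was lower, and XTH28 and XTH24 were higher. EXPA8 (AT2G40610), an expansin, stood at 1.28, 3.06 and 2.13 FPKM in the GR-AS2 libraries and at 3.62 to 14.1 FPKM (median 9.55) in WT. XTH28 (AT1G14720), a xyloglucan endotransglucosylase of the cell wall, stood at 93.5, 111.8 and 89.1 FPKM against 33.4 to 80.1 FPKM. Both had groups apart. The log2 differences were −1.61 (SE 0.36, adjusted p = 0.00753) for EXPA8 and 1.17 (SE 0.23, adjusted p = 0.0027) for XTH28. Both calls held in every fit that left out 1 library, and both genes were called in the same direction at 0 min (−1.32 and 1.07), with adjusted p of 0.119 and 0.0682 without GR-AS2 0 min replicate 3. XTH28 is outside the list of 23 wall genes, which held 1 lower (EXPA8) and 1 higher gene (XTH24), near the 2.18% and 2.48% of all genes, with a median of −0.43. XTH24 lost its call also without WT replicates 1, 3 or 6.

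Of the detoxification genes 9 were higher, 8 of which lost the call without GR-AS2 replicate 3. Glutathione S-transferases (GST) of the tau and phi classes and family 1 glucosyltransferases attach glutathione or sugar to foreign or reactive compounds and rise with many chemicals. These 9 belong to the 26 tested genes of the xenobiotic response list, of which none was lower and 17 were not called, against 2.48% of all genes called higher. The list median was 1.101, with 24 of 26 above 0. The 9 were GSTU8, UGT73B3, GSTF3, GSTF2, GSTF7, GSTF6, UGT73B2, GSTU7 and GSTU1. Without WT replicate 3 the list held 17 called members, in a fit that called 1235 genes (679 higher) against 846 (450 higher) in the main fit. By library the list median was 0.81, 1.122 and 1.63 in GR-AS2 and, within that range, 1.36 in WT replicate 3, the other 5 WT libraries lying from −0.42 to −0.03.

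GSTU8 (AT3G09270, chromosome 3, 2848183 to 2849686) stood at 45.7, 100.4 and 209.3 FPKM in GR-AS2. In WT it stood at 20.1, 21.8, 58.0, 18.7, 18.1 and 18.1 FPKM, so WT replicate 3 reached above the lowest GR-AS2 library. The log2 difference was 2.03 (SE 0.35, adjusted p = 0.00109 in limma), and the call held in every fit that left out 1 library. UGT73B3 (AT4G34131) stood at 4.55, 4.90 and 11.9 FPKM against 1.84 to 3.297 FPKM, apart, with a difference of 1.298 (SE 0.23, adjusted p = 0.00156). GSTF3 (AT2G02930) stood at 2.24, 6.19 and 28.8 FPKM against 0.452 to 2.16 FPKM, apart by a narrow margin, with a difference of 2.58 (SE 0.52, adjusted p = 0.0039). GSTF2 stood at 504, 1319 and 4820 FPKM against 156 to 1000 FPKM, with overlap. UGT73B3, GSTF3 and GSTF2 lost their calls without GR-AS2 replicate 3. GSTF genes include near copies and UGT73B3 overlaps AT4G34120, so the split of reads between such genes is uncertain.

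The same list had a median above 0 before the hormone. At 0 min its median difference was 1.11 with 12 members called higher, where 5.02% of all genes were called higher. GSTU8 stood at a log2 difference of 1.81 there, GSTF3 at 2.203, GSTF2 at 1.88 and UGT73B3 at 0.76, all called. Without GR-AS2 0 min replicate 3 no member was called at 0 min, while the median was 0.86 and the same 4 genes stood at 1.52, 1.88, 1.44 and 0.70. At 60 and 120 min the list medians were 0.80 and 0.63.

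Several defence genes were far higher in GR-AS2 replicate 3 than in any other library. WRKY60, a transcription factor of salicylate signalling, stood at 3.71, 3.93 and 29.1 FPKM against 2.14 to 2.76 FPKM in WT. NIMIN1, which binds the salicylate receptor NPR1, stood at 0.593, 0.359 and 10.4 FPKM against 0 to 0.216 FPKM. The defensin gene PDF1.4 stood at 16.8, 20.1 and 1422 FPKM against 5.74 to 18.4 FPKM, and AT3G18250 at 10.8, 28.3 and 1405 FPKM against 2.34 to 34.6 FPKM. CYP71A12, a cytochrome P450 of camalexin and indole defence, stood at 1.52, 8.51 and 143 FPKM against 0.0806 to 3.41 FPKM. In each of these genes replicate 3 was many times the other libraries of its line. Their log2 differences were 1.53, 1.93, 2.98, 3.53 and 3.34, and all of these calls were lost without that library. With only the groups compared in the fit, their adjusted p ran from 0.629 to 0.660 in limma. Of the 7 tested PDF1 defensin genes PDF1.4 alone was called, beside 4.66% of all tested genes. Of the 7, 5 were below 0, and the median was −0.13.

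The salicylate defence list of 23 tested genes had a median of 0.54 with 2 called higher, against 2.48% of all genes, and medians of −0.16, 0.26 and 1.93 in the GR-AS2 libraries. Without GR-AS2 replicate 3 none of the list was called, in a fit that called 87 genes (25 higher). Without GR-AS2 replicate 1, 10 of the list were called. That fit called 1552 genes (1064 higher), against 846 (450 higher) in the main fit, so the 2.48% is not its background. PSKR1, the receptor of the peptide phytosulfokine, stood at 2.95, 3.26 and 10.6 FPKM against 1.33 to 2.39 FPKM. CEJ1, an AP2/ERF repressor, stood at 4.24, 3.91 and 15.5 FPKM against 1.76 to 3.24 FPKM. PAL1, which opens phenylpropanoid synthesis, stood at 94.8, 129 and 563 FPKM against 46.1 to 106 FPKM. PSKR1 and CEJ1 had groups apart and PAL1 overlapped, with log2 differences of 1.01, 1.45 and 1.39 that were called and lost without replicate 3. NIT2, a nitrilase, stood at 15.6, 23.4 and 138 FPKM against 2.3001 to 20.99 FPKM, with a difference of 2.99, and was called higher at 0 min too (3.05), with an adjusted p of 0.0917 without GR-AS2 0 min replicate 3. In the same library the medians of the photosynthesis, root and phosphate lists were −1.86, −0.84 and −1.23, and their part in these results was not tested.

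Higher genes whose call did not rest on 1 library included NAC103 (AT5G64060), a NAC factor of the unfolded protein response. It stood at 5.44, 6.07 and 4.41 FPKM against 1.204 to 2.37 FPKM in WT, apart, with a log2 difference of 1.47 (SE 0.30, adjusted p = 0.00406 in limma). TK1a, a thymidine kinase of nucleotide salvage, stood at 27.3, 30.6 and 37.3 FPKM against 14.3 to 23.8 FPKM. The groups of TK1a were apart and its difference was 0.69 (SE 0.15, adjusted p = 0.0052), a call lost without GR-AS2 replicate 3. BAG5 (AT1G12060), a co-chaperone with a BAG domain, was lower at 6.11, 5.80 and 5.34 FPKM against 10.9 to 14.4 FPKM. Its log2 difference was −0.92 (SE 0.17, adjusted p = 0.0027), the groups were apart, and the call held in every fit that left out 1 library. It was not called at 0, 60 or 120 min, where its differences were −0.35, −0.11 and −0.18. GATA7, a GATA zinc finger factor, stood at 2.75, 3.19 and 1.63 FPKM against 4.66 to 8.39 FPKM, apart, with a difference of −0.98 that was lost without replicate 3.

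**Figure D4:**
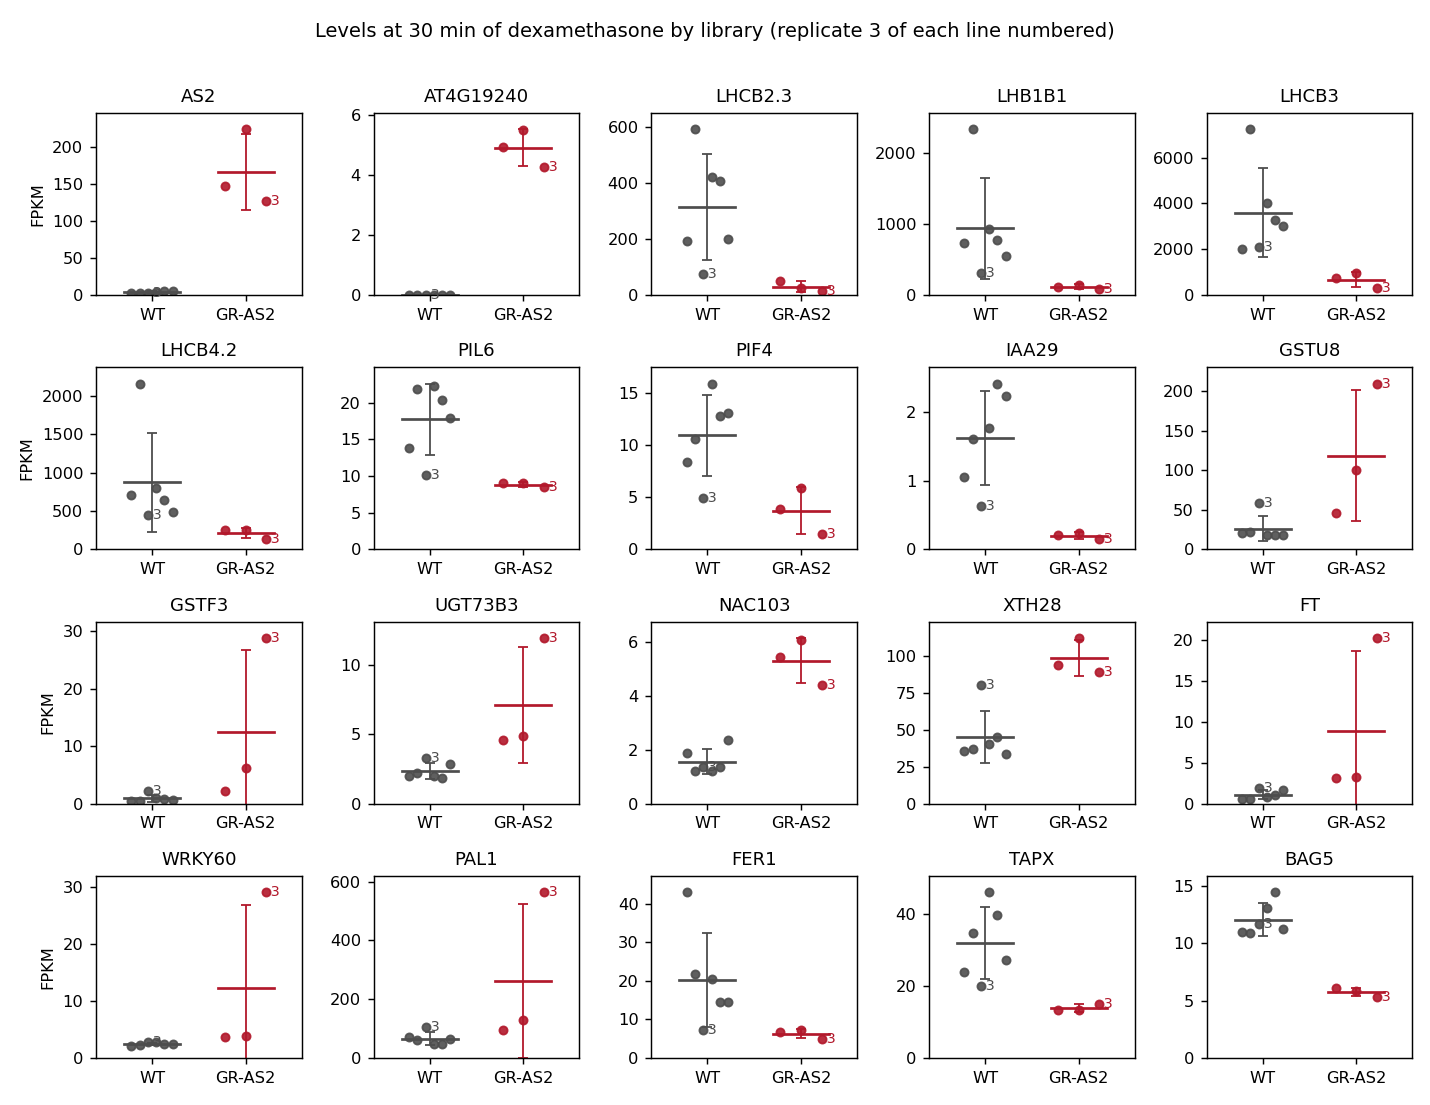
Points are FPKM of single libraries, on linear axes from 0, for 20 named genes in WT (6 libraries) and GR-AS2 (3 libraries) at 30 min, with group means and SD bars that end at the axis where they would pass 0. Replicate 3 of each line is numbered: in GR-AS2 it is the lowest library for LHCB2.3 (13.5) and the highest for WRKY60 (29.1).

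FLOWERING LOCUS T (FT, AT1G65480), the mobile flowering signal, stood at 3.09, 3.24 and 20.2 FPKM in the GR-AS2 libraries and at 0.568 to 1.85 FPKM in WT. Its groups were apart, its log2 difference was 2.14 (SE 0.45, adjusted p = 0.0052 in limma), and the call was lost without replicate 3. At 0 min the difference was 1.31 with an adjusted p of 0.052.

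Nutrient genes included 4 called genes of the iron list, 2 lower and 2 higher. Ferritins store iron, and plants lower them when iron is short. FER1 stood at 6.76, 7.34 and 4.88 FPKM against 7.15 to 43.0 FPKM, overlapping, with a log2 difference of −1.61 (adjusted p = 0.0109). FER4 stood at 1.99, 2.43 and 1.89 FPKM against 2.41 to 8.87 FPKM, with a difference of −1.21. FRO3, a ferric reductase of mitochondria, stood at 29.0, 22.3 and 37.8 FPKM against 9.86 to 19.9 FPKM, apart, with a difference of 0.77 (adjusted p = 0.0154). BTS, a ubiquitin ligase that restrains the iron deficiency response, was higher at 0.84. FER1, FER4, FRO3 and BTS were all called in the same direction at 0 min, at −1.94, −1.78, 0.86 and 1.01, and FER1 alone of these 4 kept the 0 min call without GR-AS2 0 min replicate 3. The calls of FER4 and BTS at 30 min were also lost without several WT libraries, FER4 without 1, 2 or 6 and BTS without any of 2 to 6 or GR-AS2 replicate 1. Of 19 tested genes of the iron list these 4 were called, 2 in each direction against 2.48% and 2.18% of all genes, and the list median was −0.02.

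Of 18 nitrate genes 14 were above 0, the median was 0.15, and 2 were called lower against 2.18% of all genes. They were NRT2:1, a high-affinity nitrate transporter (−1.42), and NRT1.5, which loads nitrate into the xylem (−1.07). NRT2:1 lost its call without WT replicate 2 and NRT1.5 without WT replicates 1 or 6. Of 13 tested genes of the phosphate list none was called, beside 4.66% of all tested genes, 11 were below 0, and the median was −0.27. Of 14 cytokinin metabolism genes 10 were above 0, the median was 0.05, and 3 were called lower, against 2.18% of all genes. LOG1, which activates cytokinin, stood at 8.23, 7.35 and 6.58 FPKM against 12.8 to 28.9 FPKM, apart, with a difference of −1.05 (SE 0.25, adjusted p = 0.0129). IPT5, a cytokinin synthase, was at −0.95, and CKX6, which degrades cytokinin, at −0.49, a call lost without WT replicates 1, 4, 5 or 6 or GR-AS2 replicate 2. Of 21 clock genes 9 were above 0, the median was −0.05, 18 were not called and 3 were called lower, against 2.18% of all genes. They were TCP11 (−0.63), AT5G64170 (−0.86) and AT3G54500 (−0.87). TCP11 lost its call without WT replicate 2 and AT5G64170 without WT replicate 6. AT3G54500 lost its call without any 1 of 7 libraries other than WT replicate 3 and GR-AS2 replicate 3, and without the latter.

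The genes AS2 is best known for did not pass the test. Of 9 tested genes described as repressed by AS1 and AS2 none was called, where 4.66% of all tested genes were. A list of this size can hold none at that share. The median of the 9 was −0.10, the range ran from −0.23 to 0.22, and the lowest adjusted p was 0.415 in limma. KNAT1, a KNOX homeobox gene, stood at 3.46, 4.92 and 5.74 FPKM against 3.82 to 5.89 FPKM in WT, at a log2 difference of −0.10 (SE 0.21). KNAT6 stood at 2.03, 2.70 and 3.08 FPKM against 2.34 to 4.19 FPKM, at −0.08 (SE 0.18). ETT, an auxin response factor of the lower leaf side, stood at 4.35, 5.71 and 4.73 FPKM against 4.08 to 5.56 FPKM, at −0.01 (SE 0.14), and ARF4 was at 0.22 (SE 0.14). KAN2 was at −0.13, YAB5 at −0.18, the cell cycle inhibitors KRP2 and ICK3 at −0.14 and 0.00, and the cytokinin synthase gene IPT3 at −0.23. The groups overlapped in all 9 genes.

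Of 7 KNOX genes, 10 genes of abaxial identity and 9 HD-ZIP III and LITTLE ZIPPER genes none was called. The share over all tested genes was 4.66%, so such short lists can hold none. Their medians were 0.00, −0.07 and −0.11. STM stood at 2.47, 3.09 and 3.89 FPKM against 2.22 to 4.01 FPKM. Among the abaxial genes YAB3 had the lowest adjusted p, 0.0977, at a difference of −0.46 (SE 0.17), and it was called lower at 0 min (−0.92). AFO, a YABBY gene, stood at 13.2, 12.3 and 12.9 FPKM against 14.1 to 19.9 FPKM, apart, at −0.34 (adjusted p = 0.259). Of the HD-ZIP III genes REV was at −0.01, PHB at −0.25, PHV at −0.11, ATHB-15 at −0.22 and HB-8 at −0.44. ZPR2, a LITTLE ZIPPER gene, had the widest difference of that list at 0.61 (adjusted p = 0.213). A missed threshold does not show equal levels: the SE of these genes ran from 0.13 to 0.38 log2 units.

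AS1 (AT2G37630, chromosome 2, 15781232 to 15783480), the partner of AS2, stood at 10.4, 10.7 and 11.8 FPKM in the GR-AS2 libraries and at 19.5, 16.2, 11.8, 16.8, 14.9 and 13.7 FPKM in WT. All GR-AS2 libraries lay below all WT libraries, by a narrow margin at WT replicate 3. The difference of −0.47 (SE 0.19) was not called at 30 min (adjusted p = 0.136), was called at 0 min (−0.84, adjusted p = 0.0041; 0.127 without GR-AS2 0 min replicate 3), and was −0.21 and −0.23 at 60 and 120 min. AS1 overlaps AT2G37620. Of the 18 tested LOB-domain genes with AS1, AS2 alone was called at 30 min, beside 4.66% of all tested genes.

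A pair of neighbouring loci was listed at 0 in every WT library. AT4G19239, a transcribed pseudogene (chromosome 4, 10527516 to 10527776), stood at 12.0, 9.20 and 10.09 FPKM in GR-AS2, with 0 listed in all 6 WT libraries. AT4G19240 beside it (chromosome 4, 10527800 to 10529092) stood at 4.93, 5.51 and 4.27 FPKM and was listed at 0 in WT. Both were also listed at 0 in the WT libraries of 0, 60 and 120 min, and averaged at most 0.263 and 0.0179 FPKM in the other GR lines at 30 min. Both were called at 0, 30, 60 and 120 min, and at 0 min also without each 0 min library in turn. No fold is given against a group listed at 0.

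Other genes listed at 0 in all WT libraries did not share this evenness. MIR166c, the precursor of a microRNA that cuts HD-ZIP III transcripts, was listed at 0, 0 and 1078 FPKM in GR-AS2, and AT1G35143 at 0, 0 and 30.4 FPKM. AT1G02320 stood at 4.76, 0 and 6.86 FPKM and AT3G60318 at 6.18, 9.36 and 0 FPKM. In each of these 1 or 2 GR-AS2 libraries were at 0 as well, and MIR166c and AT1G35143 rested on replicate 3 alone. The calls of the first 2 were lost without WT replicates 1, 2 or 6 as well, that of AT1G35143 also without 4 or 5, that of AT1G02320 without GR-AS2 replicate 1, and that of AT3G60318 without any library but GR-AS2 replicate 3 and WT replicate 3.

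The same difference between line and WT was measured at the other times, each with its own libraries. Before the hormone, at 0 min, 1995 genes were called (912 higher, 1083 lower), 11% of those tested (5.02% higher, 5.96% lower). Of the 846 genes called at 30 min 774 had the same sign at 0 min, where 66.3% of all tested genes did, and 237 were called the same way. These 237 are 28.0% of the 846 and 11.9% of the 1995. At 60 min 57 genes were called (47 higher, 0.259%, and 10 lower, 0.0551%; 0.314% in all), 16 of them called the same way at 30 min. At 120 min 15 genes were called (5 higher, 0.0275%, and 10 lower, 0.0551%; 0.0826% in all), 8 of them the same way at 30 min. At both times no gene was called opposite to its call at 30 min. The 0 min calls rested on GR-AS2 0 min replicate 3: without it 25 genes were called at 0 min, 12 of them among the 846 and in the same direction, while 765 of the 846 still had the same sign. Leaving out replicate 1 of that group gave 3315 genes called at 0 min, and leaving out replicate 2 gave 1183. When the fit left out GR-AS2 30 min replicate 3, 47 of the then 87 genes called at 30 min were called the same way at 0 min.

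**Figure D5:**
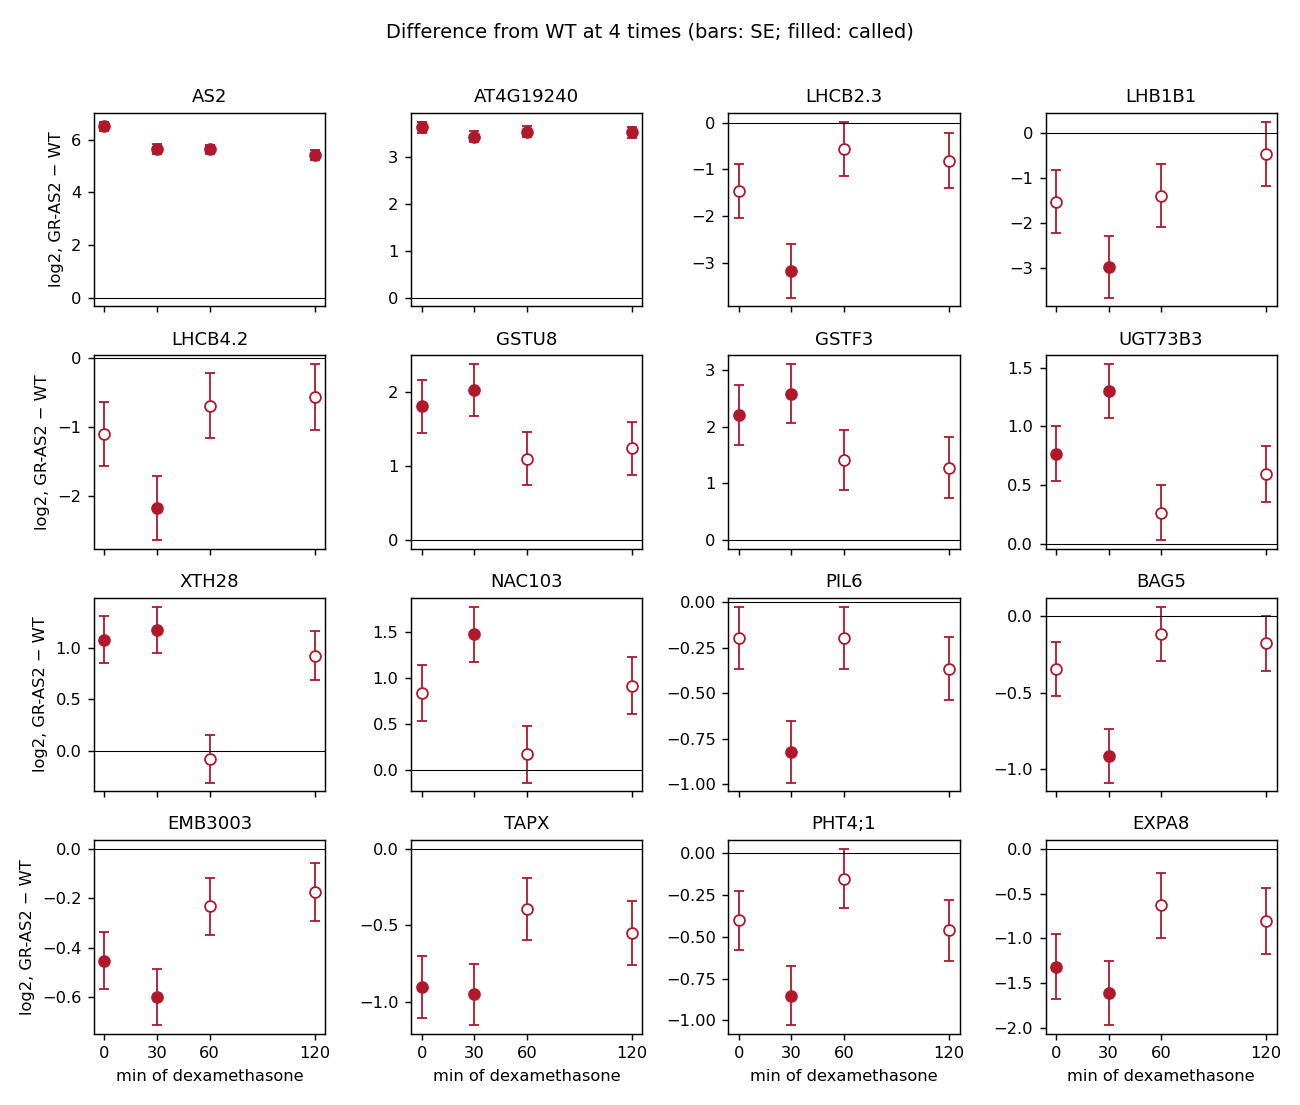
Points are the log2 differences of GR-AS2 minus WT at 0, 30, 60 and 120 min, with SE bars, for 16 named genes (filled where called). AS2 stays between 5.41 and 6.51, and LHCB2.3 has its lowest value, −3.18, at 30 min.

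Of the 846 genes, 602 were called at no other time. Such a count does not show that they changed with the hormone, and the change itself was tested as the shift of the line's difference from 0 to 30 min. No gene was called in that test with limma, while 1975 genes had an unadjusted p under 0.05. Without GR-AS2 replicate 2 of 30 min, 416 genes were called in it, without replicate 1 of 30 min 36, and without replicate 1 of 0 min 140. AS2 had a shift of −0.86 (SE 0.25, adjusted p = 0.271).

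The difference at 30 min was also set against those at 60 and 120 min. A single gene, APS3, an ATP sulfurylase of sulfate assimilation, was called between 30 and 60 min, at −1.56 (adjusted p = 0.0254 in limma), which is 0.00551% of those tested, and 1668 genes had an unadjusted p under 0.05. It averaged 7.10 ± 2.79 FPKM in GR-AS2 (n = 3) and 10.6 ± 2.21 FPKM in WT (n = 6) at 30 min. The call was lost without GR-AS2 30 min replicate 3 (adjusted p = 0.255), WT 30 min replicate 6 (0.125), WT 60 min replicate 4 (0.0545) or GR-AS2 60 min replicates 2 (0.0767) or 3 (0.219), in each of which no gene was called. Leaving out GR-AS2 30 min replicate 1 gave 106 genes called and replicate 2 gave 236, APS3 among them both times. Between 30 and 120 min no gene was called in limma, with 1218 at an unadjusted p under 0.05.

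A set of 5 genes was called the same way at all 4 times, AS2, AT4G19239, AT4G19240 and AT3G05937 higher and CAT1, a catalase, lower. AT3G05937 averaged 14.2 ± 1.58 FPKM in GR-AS2 and 4.68 ± 1.90 FPKM in WT at 30 min, at a log2 difference of 1.45 (SE 0.25). CAT1 averaged 8.45 ± 3.39 and 13.2 ± 2.70 FPKM, with overlap, at −0.80 (SE 0.17) at 30 min and −1.19, −1.28 and −0.89 at 0, 60 and 120 min. Without GR-AS2 0 min replicate 3 CAT1 kept the 0 min call and AT3G05937 lost it. Both were named after their values were seen.

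The other 3 fusion lines received the same hormone. Against the mean of GR-STM, GR-REV and GR-KAN1 at 30 min (8 libraries), GR-AS2 had 1493 called genes (831 higher, 662 lower), 8.22% of those tested (4.58% higher, 3.64% lower). The same 3 GR-AS2 libraries enter both comparisons, so their results are given side by side. Without GR-AS2 replicate 3 the count was 246, and without GR-REV replicate 1 it was 981. LHCB2.3 stood at −3.13 against the other lines and −3.18 against WT, LHB1B1 at −2.98 and −2.97, PIL6 at −0.94 and −0.82, GSTU8 at 1.83 and 2.03, and NAC103 at 1.53 and 1.47. AS1, not called against WT, stood at −0.76 (SE 0.17, adjusted p = 0.00519) against the other lines. Of the photosynthesis list 17 of 28 were lower and 1 was higher against the other lines, and of the xenobiotic list 10 of 26 were higher.

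Markers of the sampled tissue were present in both groups. The root regulator SCR stood at 7.996 to 14.5 FPKM in GR-AS2 and 8.63 to 11.4 FPKM in WT, and COBL9, of root hairs, at 0.478 to 2.405 and 0.807 to 1.64 FPKM. PLT1, of the root tip, was at most 0.387 FPKM in any of the 9 libraries. Of 17 root markers 1 was called, GL2 (−0.59), against 2.18% of all genes called lower. Its call was lost also without WT replicates 1 or 2. The list's medians by GR-AS2 library were 0.33, 0.68 and −0.84. Summed FPKM of the root list ran from 301 to 496 in GR-AS2 and from 194 to 402 in WT, and of the meristem list from 13.1 to 14.3 and from 10.9 to 18.4. Of 22 tested cell cycle genes none was called, beside 4.66% of all tested genes, 19 were below 0, and the median was −0.28. By library that list's median was −0.18, −0.31 and −0.49 in GR-AS2 and from −0.14 to 0.16 in WT. No gene was called among 9 type-A response regulators, 17 touch and early stress genes, 12 heat shock genes and 19 ethylene genes. Lists this short can hold none at the 4.66% of all genes.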

How the data were processed

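The deposited values are FPKM per gene with geometric normalization between libraries, made by the authors, per the labels. TopHat2 2.0.10, Cufflinks and TAIR10 are named in the submitters' processing notes, which give no Cufflinks version; strand use is not given here. The series' design text calls the replicates biological. Depth per library is unknown, since low FPKM showed no steps of whole reads (1.98% to 6.74% of low values at the commonest ratio), so precision is that of the replicates. Among the 9 libraries, 391 to 1088 genes were listed at 0. The table held 22346 rows; 14 placeholders and 200 organelle genes were left out, and 0 columns belonged to other samples. Names and coordinates come from TAIR10.1, which matched 22041 loci and not 291.

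Differences were tested by limma 3.58.1 (R 4.3.3), with log2(FPKM + 0.5) as the response, which understates changes of low genes. One model held 71 libraries in 20 groups, with the library code series as covariate, 49 residual degrees of freedom and a mean-level trend in the empirical Bayes step. P-values are two-sided and adjusted (Benjamini-Hochberg) over all 18162 genes. The model was also run on simulated data with known changes, where each gene had the same spread in every library. Those data held no library that stands apart, so the run does not bear on the part of GR-AS2 replicate 3.

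The lists and genes were chosen with earlier results of these data known. Named genes are AS2 and AS1; the 10 genes each way with the smallest adjusted p that have a symbol, at least 5 FPKM and groups apart; the 5 largest differences each way; up to 4 called genes per list; all genes tested of the leaf polarity lists; called genes at 0 in 1 group; runs of neighbours; and up to 6 genes per further comparison. Alternatives changed the pseudocount, filter, covariate, normalization, libraries and weights.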

Additional observations from a re-analysis of the deposited data

Results flagged for a closer look

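Among the 102 named genes, 8 had 1 WT library at 30 min far from the other 5 by Dixon's test, and in all 8 it was WT replicate 3. Chance flags about 1 in 20 groups. It was the highest library for XTH28 (80.1 FPKM, next 45.3), AT3G18250 (34.6, next 6.77), CYP71A12 (3.41, next 0.565), AGAL2 (18.17, next 13.5), GSTU8 (58.0, next 21.8) and AT1G26420 (2.85, next 0.751). It was the lowest for AT5G64170 (2.29 FPKM, next 5.18) and AT3G54500 (5.04, next 10.3). The GR-AS2 groups of 3 were not put to this test, so it says nothing of libraries that stand apart in them.

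The difference between GR-AS2 and WT differed between 30 and 60 min for APS3, by −1.56 log2 units (adjusted p = 0.0254 in limma, as 30 min minus 60 min). It was −0.61 at 30 min and 0.95 at 60 min. The call held in 13 of 18 fits that left out 1 library of either time, with differences from −1.82 to −1.28 and adjusted p of up to 0.255, and no gene was called with library weights, with only the groups compared or without both libraries that stood apart.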

How the results depend on the processing

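Of the 71 named and called genes, 70 kept their sign in each of the fits run, the exception being MIR166c, which is at 0 in all libraries left without GR-AS2 replicate 3, and 3 of them (AS2, AT4G19239 and AT4G19240) kept the call in all of them. These fits share libraries with the main fit, so a kept sign is no separate support. Depth is unknown, and the number of libraries limits the precision. The count of 846 was 779 and 886 with pseudocounts of 0.1 and 1, 774 without a filter and 634 at a mean of at least 5 FPKM. It was 1778 without the code-series covariate, 32 in series Ot79, 4 with only the groups compared, 1274 with quantile normalization (548 higher, 726 lower, 43.0% higher against 53.2%), 917 with median centring (396 higher, 521 lower, 43.2% higher), 252 with library weights and 292 without both libraries that stood apart. Leaving out 1 library gave 87 to 1552. Leaving out both libraries, the comparisons of 30 with 60 and 120 min and the set of 44 genes were chosen after seeing the data. Why these counts moved was not tested, beyond fewer samples in the smaller fits.

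Each setting has its own genes called at 30 min, so the counts that follow are of genes called the same way at both times in that setting. For 0 min they were 237 of 846 in the main setting, 598 of 1778 without the covariate, 6 of 32 in Ot79, 3 of 4 with only the groups compared and 459 of 1274 with quantile normalization. Leaving out 1 library gave 12, without GR-AS2 0 min replicate 3, to 419, without WT 30 min replicate 3. For 60 min the 16 became 86, 4, 3 and 25 in the same order, 84 with weights and 29 without both libraries (7 to 37). For 120 min the 8 became 209, 4 and 3 without the covariate, in Ot79 and with only the groups compared, 63 with weights and 18 without both libraries (4 to 16).

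The shift from 0 to 30 min held 1 gene with a pseudocount of 0.1, 1 with weights, and 0 to 416 leaving out 1 library. Against the other lines the 1493 became 780 without the covariate, 50 with only the groups compared, 768 with weights and 301 without both libraries (246 to 2152). Between 30 and 60 min the 1 gene became 2 with a pseudocount of 1, 8 without the covariate, 3 in Ot79 and 0 with only the groups compared, with weights or without both libraries (0 to 236). Between 30 and 120 min leaving out 1 library gave 0 to 270.

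With the replicate number as a replicate block in series Ot79 49 genes were called at 30 min, and 11, 5 and 5 of them the same way at 0, 60 and 120 min. The numbers share no stated source. Deviations of same-numbered GR-AS2 and WT libraries correlated at 0.196, 0.0637 and 0.128, so pairing was not taken as given, although each GR-AS2 library correlated best with its own number.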

Other observations

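Some neighbours of AS2 on chromosome 1 were called, a pattern noticed after the values were seen. Of 29 other tested genes within 100 kb of AS2, 5 were higher and 1 was lower at 30 min, with a median log2 difference of 0.28, against 2.48% higher and 2.18% lower among all genes. They were FT (2.14), AT1G65500 (2.101), AT1G65510 (1.36), AT1G65690 (2.04) and RK2 (0.67), and HEXO3 at −0.63. All 6 lost the call without GR-AS2 replicate 3 (adjusted p from 0.107 to 0.91), and AT1G65500, AT1G65510 and RK2 kept it in only 3 of 9 fits that left out 1 library. Of 31 other genes within 100 kb of AT4G19240, AT4G19239 was higher and NCED4 (−1.26), which cleaves carotenoids, was lower, the latter not called without GR-AS2 replicate 3.

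Further pairs of direct neighbours were called in 1 direction. AT1G47395 had 1616, 723 and 1528 FPKM in GR-AS2 against 162 to 632 FPKM in WT, and AT1G47400 beside it at 663, 349 and 540 FPKM against 82.5 to 278 FPKM. Both pairs of groups were apart, with log2 differences of 1.53 and 1.502. AT1G26410 and AT1G26420 stood at 56.5 and 53.0 FPKM in GR-AS2 replicate 3 and at no more than 3.17 FPKM in any of the other 8 libraries.

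AT5G03545 had 29.1, 45.3 and 0.538 FPKM in the GR-AS2 libraries and 44.6 to 73.4 FPKM in WT. Its log2 difference of −2.27 was called and was lost without GR-AS2 replicate 3. PIF7, another phytochrome-interacting factor, and CDF1, a repressor of FT, are among the 44 genes called in every fit that left out 1 library, at −0.63 and −0.997; both were picked after their values were seen.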
